A study of Mus musculus with 7 samples.

Results

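The Ikaros family is a set of 5 zinc-finger transcription factors, Ikzf1 (Ikaros), Ikzf2 (Helios), Ikzf3 (Aiolos), Ikzf4 (Eos) and Ikzf5 (Pegasus). Accessible chromatin was taken from every peak that overlapped their gene bodies or the 30 kb on either side, as mapped by ATAC-seq in 7 libraries of mouse B-lineage cells. This gave 524 of 647973 peaks. Peaks of the 7 libraries that overlapped were merged into 108 regions, of 145247 in all, of which 54 lay at Ikzf1, 12 at Ikzf2, 23 at Ikzf3, 16 at Ikzf4 and 3 at Ikzf5.

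Ikaros proteins bind DNA through N-terminal zinc fingers and pair with themselves and each other through C-terminal ones. They recruit the NuRD and SIN3 chromatin complexes and can silence or activate genes. Ikaros is required for lymphoid commitment and for B-cell development from its earliest steps. Aiolos is known for its increase as B-cell precursors carry a pre-B-cell receptor, Helios is best known in T cells and regulatory T cells, Eos in regulatory T cells, and Pegasus is the most divergent member.

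All cells were pre-proB, proB or preB cells, successive precursors in mouse bone marrow. WT cells came from Rag1Cre+/+;Ergfl/fl mice, which have floxed Erg and no Cre, at all 3 stages. Erg encodes an ETS-family transcription factor. Erg KO cells, sampled as pre-proB cells alone, came from Rag1CreT/+;Ergdelta/delta mice, in which a Cre driven by Rag1 deletes Erg in lymphoid progenitors and their progeny. Rescue cells carried that genotype with IgHVH10tar, a heavy chain allele that is already rearranged and so limits the heavy chain repertoire, and were sampled at the 3 stages. The WT mice lacked Cre, so carrying Cre and lacking Erg cannot be told apart. Age and the number of animals per library were not given in the labels. Each of the 7 groups was 1 library. There was no replicate, no test between groups was run, and the intervals given cover counting error only. The stages are those of the sample titles. The source names disagree with the titles of the 3 Rescue libraries, giving proB, preB and pre-proB where the titles give pre-proB, proB and preB. Stages of Rescue values are therefore uncertain throughout. The shares of regions in a single list are also given under that other reading for the 3 comparisons of Rescue with WT. In these bulk libraries, fewer cells with a region open and fewer fragments from each cell cannot be told apart.

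The lists held 76465 to 105649 peaks each, and the background pileup, a stand-in for depth, lay between 3.49 and 4.6 fragments. The weakest called summits held 10 to 12 fragments, so a region with no peak may still be accessible below that limit. Of 10 B-lineage marker promoters, 10 had a peak in every proB and preB library, 9 in WT pre-proB, 7 in Rescue pre-proB and 6 in Erg KO.

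The fold of a peak is the height of its summit over the background of its library, each with a pseudocount of 1. The promoter, any sequence within 1000 bp of an annotated transcription start, separated the members into 2 clear levels in the pre-proB libraries. Ikzf5, Ikzf2 and Ikzf1 had strong promoters in every library, while those of Ikzf3 and Ikzf4 were weak in pre-proB cells. In WT pre-proB the fold was 112 at Ikzf5 (95% Poisson interval 103 to 122), 86.5 at Ikzf2 (78.6 to 94.9), 80.6 at Ikzf1 (73.1 to 88.8), 8.72 at Ikzf3 (6.39 to 11.6) and 5.23 at Ikzf4 (3.49 to 7.58). The intervals of Ikzf2 and Ikzf1 overlapped, as did those of Ikzf3 and Ikzf4. The order of the 5 genes by fold was the same in every library. Between 61.4% and 65.5% of all coding genes had a promoter peak in a library. All 5 members had one in every library except Ikzf4 in WT preB.

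**Figure D1:**
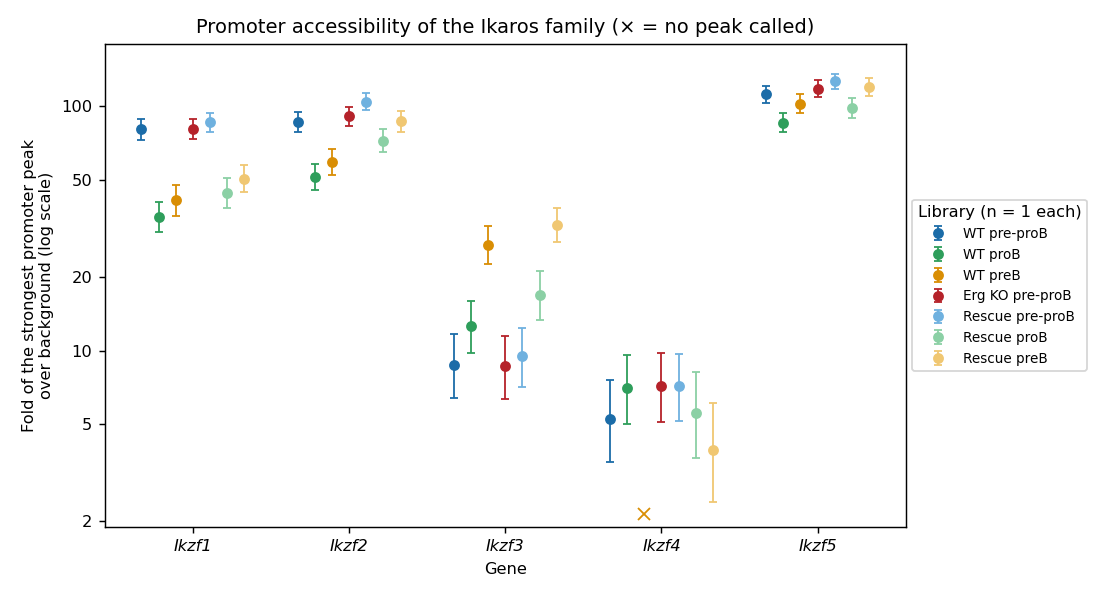
Fold over background (log axis) of the strongest promoter peak of each gene in each of the 7 libraries. Points are single libraries, bars are 95% Poisson intervals of the summit (counting error only), and the cross marks the single missing peak, Ikzf4 in WT preB. Ikzf3 goes from 8.72 in WT pre-proB to 27.2 in WT preB, while Ikzf1 goes from 80.6 to 41.2.

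The promoters had different courses over the stages. At Ikzf1 the fold was 80.6, 80.8 and 86.1 in the pre-proB libraries of WT, Erg KO and Rescue. It was 35.3 and 41.2 in WT proB and preB and 44.1 and 50.5 in the matching Rescue libraries, so the 3 libraries titled pre-proB lay above the other 4. The Ikzf3 promoter had the reverse order, with 8.72, 8.61 and 9.47 in the WT, Erg KO and Rescue pre-proB libraries. Its fold was 12.6 in WT proB, 16.9 in Rescue proB, 27.2 in WT preB and 32.8 in Rescue preB. At Ikzf5 the fold stayed between 85.8 and 127 in all libraries. The Ikzf2 promoter had 86.5, 51.5 and 59.2 over the 3 WT stages, 91.3 in Erg KO, and 105, 72.4 and 86.9 over the Rescue stages.

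**Figure D2:**
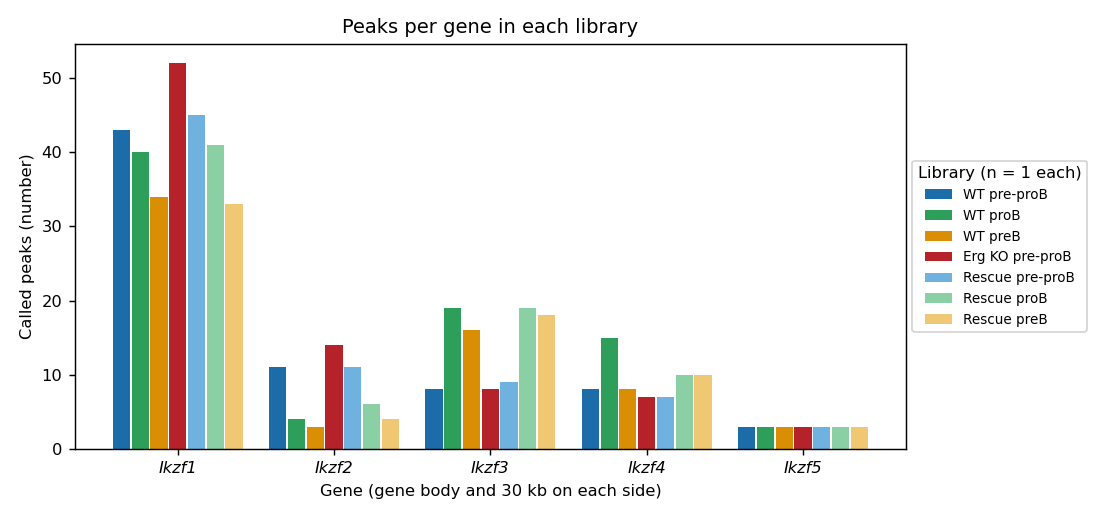
Number of called peaks in each gene body with 30 kb on either side (bars start at 0, 1 library per bar). Ikzf1 has 33 to 52 peaks, Ikzf2 goes from 11 to 3 and Ikzf3 from 8 to 16 between WT pre-proB and preB, and Ikzf5 has 3 throughout.

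Peak numbers over the stages differed between the members. Ikzf1 (ENSMUSG00000018654, chr11:11685003-11772926, plus strand, GRCm38) had 43, 40 and 34 peaks over the WT stages (pre-proB, proB, preB), 45, 41 and 33 over the Rescue stages, and 52 in Erg KO. Ikzf2 (ENSMUSG00000025997, chr1:69531214-69687245, minus strand) had 11, 4 and 3 in WT, 11, 6 and 4 in Rescue, and 14 in Erg KO. Ikzf3 (ENSMUSG00000018168, chr11:98464902-98546031, minus strand) had 8, 19 and 16 in WT, 9, 19 and 18 in Rescue, and 8 in Erg KO. For Ikzf4 (ENSMUSG00000002578, chr10:128630843-128645991, minus strand) the numbers were 8, 15 and 8 in WT, 7, 10 and 10 in Rescue, and 7 in Erg KO. Ikzf5 (ENSMUSG00000040167, chr7:131388652-131410521, minus strand) had 3 in every library. List lengths differed, and with all lists cut to the 76465 strongest peaks Ikzf1 had 30, 35 and 34 peaks over the WT stages, so that the order of pre-proB and the later stages turned. It then had 27, 36 and 29 over the Rescue stages, and 31 in Erg KO. With stages from the source names the Rescue numbers read 33, 45 and 41 at Ikzf1, 4, 11 and 6 at Ikzf2, and 18, 9 and 19 at Ikzf3.

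**Figure D3:**
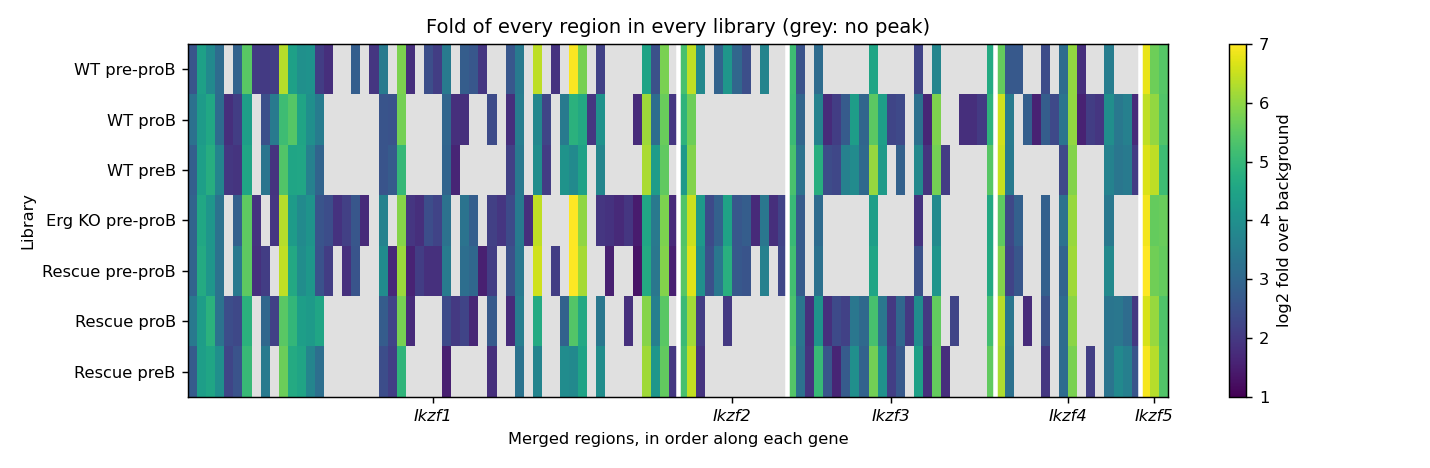
Log2 fold of all 108 merged regions (columns, in order along each gene) in the 7 libraries (rows), with grey where no peak was called. At Ikzf2 grey fills most of the 4 proB and preB rows, where 4 of 12 regions were called in the 3 pre-proB libraries only, and at Ikzf3 grey fills much of the 3 pre-proB rows, where 8 of 23 regions were called in the other 4 libraries only.

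The Ikzf1 locus exchanged its strongest element between pre-proB and proB. Regions are named by the distance of their strongest summit from the gene's first transcription start in the basic annotation. The region at +77.6 kb, in intron 8 (chr11:11762610-11764057), and that at +65.4 kb, in intron 5 (chr11:11750334-11752451), stood highest in pre-proB cells. The region at +80.4 kb, also in intron 8 (chr11:11765305-11766934), was the next intronic one in that part of the gene, and the +91 kb region, downstream of the gene (chr11:11774229-11778496), was the strongest of proB and preB cells. The sequences at their summits, 200 bases each from GRCm38 on the plus strand, are shown because these 4 strong regions differed by more than 2-fold between WT pre-proB and proB. Capitals mark matches to the patterns searched, whose letters are given with the pattern counts.
Ikzf1 +65.4 kb, chr11:11751241-11751440: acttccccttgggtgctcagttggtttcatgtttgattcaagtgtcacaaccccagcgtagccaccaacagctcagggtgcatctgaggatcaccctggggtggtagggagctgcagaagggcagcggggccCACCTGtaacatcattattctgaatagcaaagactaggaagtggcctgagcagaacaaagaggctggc
Ikzf1 +77.6 kb, chr11:11763448-11763647: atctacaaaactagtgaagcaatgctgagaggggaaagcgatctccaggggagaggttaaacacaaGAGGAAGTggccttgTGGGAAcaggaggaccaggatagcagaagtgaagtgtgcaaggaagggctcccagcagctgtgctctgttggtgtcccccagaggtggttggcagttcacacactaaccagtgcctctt
Ikzf1 +80.4 kb, chr11:11766212-11766411: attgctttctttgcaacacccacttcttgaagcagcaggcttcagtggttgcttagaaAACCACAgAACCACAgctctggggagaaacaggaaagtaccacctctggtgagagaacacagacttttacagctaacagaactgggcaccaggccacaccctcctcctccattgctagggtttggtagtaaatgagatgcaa
Ikzf1 +91 kb, chr11:11776840-11777039: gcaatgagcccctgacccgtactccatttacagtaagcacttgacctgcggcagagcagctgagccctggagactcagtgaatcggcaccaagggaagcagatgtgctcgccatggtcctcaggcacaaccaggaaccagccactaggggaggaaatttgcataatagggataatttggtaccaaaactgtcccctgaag

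Around the +77.6 kb summit a PU.1 pattern (bases 67 to 74) and an Ikaros pattern (bases 82 to 87) lay close together. The +80.4 kb window held a pair of RUNX patterns, read on the opposite strand (bases 59 to 65 and 67 to 73). At +65.4 kb the match was an E-box (bases 133 to 138), and the +91 kb window matched none of the 6 patterns. The pattern counts use wider windows of 400 bp. In those the +91 kb region had 1 Ikaros match, the +65.4 kb region 2 E-box matches and the +80.4 kb region 3 RUNX matches. A match is only a run of letters and says nothing about binding.

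The +77.6 kb region had a fold of 125 in WT, 128 in Erg KO and 137 in Rescue cells at pre-proB. Its fold was 28.4 in WT and 42.1 in Rescue at proB, and 14.7 and 14.4 at preB. The +65.4 kb region followed it, with 84.1, 86.1 and 94.4 at pre-proB, 13.7 and 25.6 at proB and 15.3 and 13 at preB. At neither region did the pre-proB libraries overlap the others. The +91 kb region did the opposite, with 22.3, 23.3 and 25.6 at pre-proB, 70.2 and 59.7 at proB and 75.8 and 70.8 at preB.

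Other strong regions of Ikzf1 differed less. The +30.8 kb region in intron 3 had 56.0, 53.5 and 32.4 over the WT stages and 60.1 in Erg KO. The +102.8 kb region, which lies in the span of the neighbouring gene Fignl1, had 44.3 to 59.5 in all 7 libraries. Few were called at the later stages only. Among them, the +73.1 kb region in intron 7 had no peak in the pre-proB libraries, folds of 10.9 and 16.9 in WT proB and preB, and 7.35 and 15.1 in Rescue proB and preB. Of the 54 regions 21 were in all 7 libraries, 5 in the 3 pre-proB libraries only, and 2 in the 4 proB and preB libraries only. For all regions of the genome these shares were 32%, 11.5% and 5.19%.

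**Figure D4:**
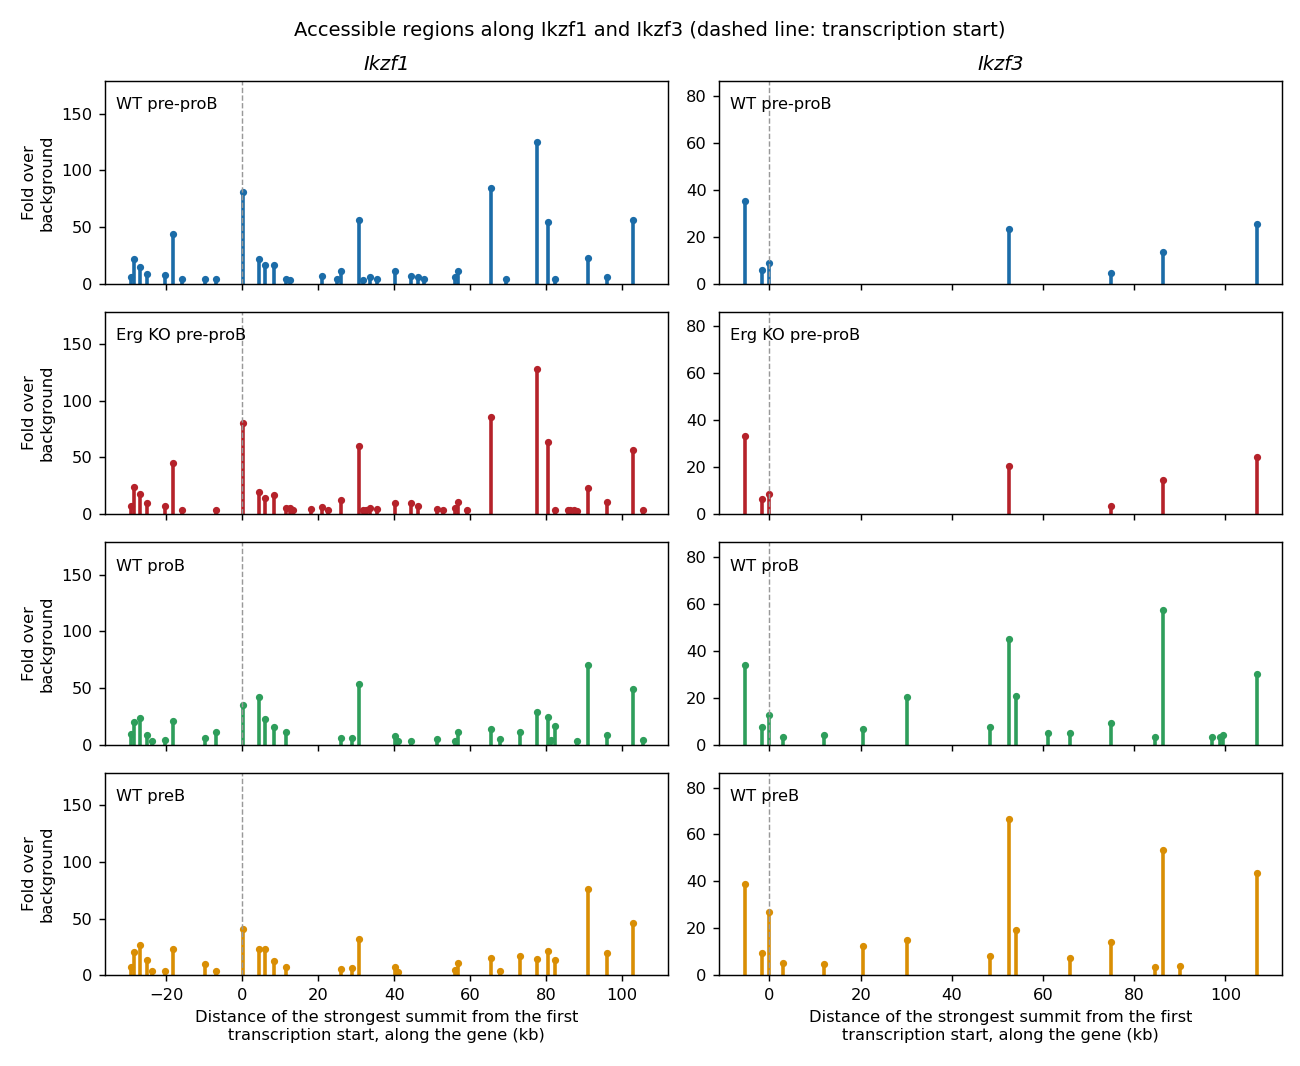
Fold over background of each region (stems) against distance from the first transcription start (dashed line) at Ikzf1 (left) and Ikzf3 (right) in WT pre-proB, Erg KO pre-proB, WT proB and WT preB. At Ikzf1 the stem at +77.6 kb is 125 and 128 in the pre-proB panels and 28.4 and 14.7 in those of WT proB and preB, and the stem at +91 kb goes the other way. At Ikzf3 several stems appear only in the proB and preB panels.

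At Ikzf2 the promoter remained accessible while the intronic regions were called mainly in pre-proB cells. Intron 3 held 4 such regions of WT pre-proB (+29.6, +32.1, +42.1 and +49.1 kb), with folds of 7.56, 17.8, 7.95 and 5.43, and intron 6 held another at +142.8 kb (chr1:69544204-69544631) with 13. None of these had a peak in WT proB or preB. The strongest, at +32.1 kb (chr1:69654674-69655400), had 21.8 in Erg KO, and in Rescue cells 27.7 at pre-proB, 4.01 at proB and no peak at preB. Its summit sequence, on the minus strand with an E-box match in capitals, is given as the leading element of that set.
Ikzf2 +32.1 kb, chr1:69654998-69655197: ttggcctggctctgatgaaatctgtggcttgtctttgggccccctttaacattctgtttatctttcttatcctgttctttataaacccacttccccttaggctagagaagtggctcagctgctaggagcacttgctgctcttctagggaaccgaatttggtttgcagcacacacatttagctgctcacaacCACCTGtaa

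A further region at +4.0 kb, within 1000 bp of an alternative start of Ikzf2 (chr1:69682367-69683593), had folds of 14, 18.7 and 15.9 in WT, Erg KO and Rescue at pre-proB. It had no peak in the later WT libraries, and folds of 4.23 and 3.71 in the later Rescue ones. The region just upstream of the main promoter, at -1.9 kb, was present in all libraries with 19.1 to 43.2. In all, 4 of 12 Ikzf2 regions were in the 3 pre-proB libraries only, against 11.5% of all regions.

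At Ikzf3 more regions were called after pre-proB. Of its 23 regions 8 were in no pre-proB library and in all 4 proB and preB libraries, against 5.19% of all regions. The +54.1 kb region in intron 3 (chr11:98491376-98492017) had no peak in the pre-proB libraries and folds of 20.9 and 10.5 at proB in WT and Rescue, and 19.3 and 16.5 at preB. The +30.1 kb region, in the same intron (chr11:98515387-98515962), had 20.3 and 10.5 at proB, and 14.9 and 15.9 at preB. The +86.4 kb region, downstream of the gene (chr11:98457126-98460461), was called throughout. Its fold was 13.6 in WT, 14.7 in Erg KO and 17.5 in Rescue cells at pre-proB, 57.6 and 46.8 in WT and Rescue at proB, and 53.5 and 48.3 at preB. All 4 later libraries lay above the 3 pre-proB ones, and the +52.6 kb region in intron 3 did likewise, with 20.5 to 23.1 against 38.3 to 66.4. The sequences shown are those of a region gained after pre-proB and of the strongest region of WT proB, on the minus strand.
Ikzf3 +54.1 kb, chr11:98491628-98491827: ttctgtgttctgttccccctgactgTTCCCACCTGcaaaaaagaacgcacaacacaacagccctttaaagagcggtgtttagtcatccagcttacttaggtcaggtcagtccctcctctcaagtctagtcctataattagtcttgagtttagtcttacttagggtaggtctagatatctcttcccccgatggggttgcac
Ikzf3 +86.4 kb, chr11:98459321-98459520: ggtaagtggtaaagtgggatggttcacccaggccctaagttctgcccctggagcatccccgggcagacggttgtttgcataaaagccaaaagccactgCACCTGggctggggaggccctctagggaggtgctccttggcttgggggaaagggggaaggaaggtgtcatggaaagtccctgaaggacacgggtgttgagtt

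In the +54.1 kb window an Ikaros match (bases 26 to 31) ran into an E-box match (bases 30 to 35), and the +86.4 kb window held an E-box match (bases 99 to 104). The Ikzf3 window also contains promoters of other genes. The promoter of Zpbp2 at -5.4 kb had a fold of 33.3 to 41.9 in all libraries, and that of Mien1 at +106.9 kb had 24.6 to 47.0. That of Grb7 had weak peaks in WT proB only, at +99.4 kb (4.06) and +98.9 kb (3.51). The +97 kb region, in the span of Grb7, was also called in WT proB only, with 3.51.

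The regions of Ikzf4 itself had low folds. The promoter region at +0.1 kb had 5.23, 7.15 and 7.15 in WT, Erg KO and Rescue at pre-proB, 6.83 and 5.57 in WT and Rescue at proB, and 3.92 in Rescue preB. Further promoter regions were called in WT proB at -1.2 kb (7.02), -0.5 kb (2.95) and +0.7 kb (4.98), and of these Rescue proB had the first, with 3.34. Of the 16 regions 3 were called in no pre-proB library and in all 4 others, all of them downstream. The +43.1 kb region (chr10:128602221-128603166) had folds of 12.2 and 8.69 in WT and Rescue at proB, and 11 and 12 at preB. The +38.7 kb region had 10.5 in both at proB, and 10.3 and 14.4 at preB. The highest folds of the window lay at promoters of neighbours, with 55.1 to 71.1 at Rps26 (+19.2 kb), a ribosomal protein gene, and 46.0 to 94.5 at Suox (-28.1 kb). The summit of the +43.1 kb region, on the minus strand, matched none of the patterns. It is shown as the strongest region gained in this window in WT proB. It lies beyond the Rps26 promoter, and which gene it serves was not tested.
Ikzf4 +43.1 kb, chr10:128602755-128602954: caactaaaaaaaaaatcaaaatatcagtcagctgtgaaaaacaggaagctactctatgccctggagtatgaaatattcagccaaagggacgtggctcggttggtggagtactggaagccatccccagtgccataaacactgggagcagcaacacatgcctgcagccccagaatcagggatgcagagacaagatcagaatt

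Ikzf5 had its own promoter, shared head to head with Acadsb, and those of Pstk (+39.3 kb) and 2310057M21Rik (+47.6 kb). All 3 were in all 7 libraries, and none differed 2-fold in any of the 6 comparisons.

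The first comparison was between cells with and without Erg at the pre-proB stage. Between WT pre-proB and Erg KO the strong regions of the family had nearly equal folds, and the regions in a single list were weak. Of 78 regions called in either library 57 were in both. None was 2-fold higher or lower in Erg KO after centring on the median of all shared regions, where over all regions 0.185% were higher and 0.332% lower. The centred log2 differences of the 57 ran from -0.43 to 0.89, with a median of -0.01. The differences were -0.02 at +77.6 kb of Ikzf1 (interval -0.18 to 0.13), -0.05 at its promoter (-0.25 to 0.14) and 0.02 at the promoter of Ikzf2 (-0.17 to 0.21). At Ikzf3 the same 7 regions were called in both. The highest difference, 0.89 (0.24 to 1.62), was at +95.9 kb downstream of Ikzf1, with folds of 5.62, 10.8 and 10.4 in WT, Erg KO and Rescue at pre-proB.

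**Figure D5:**
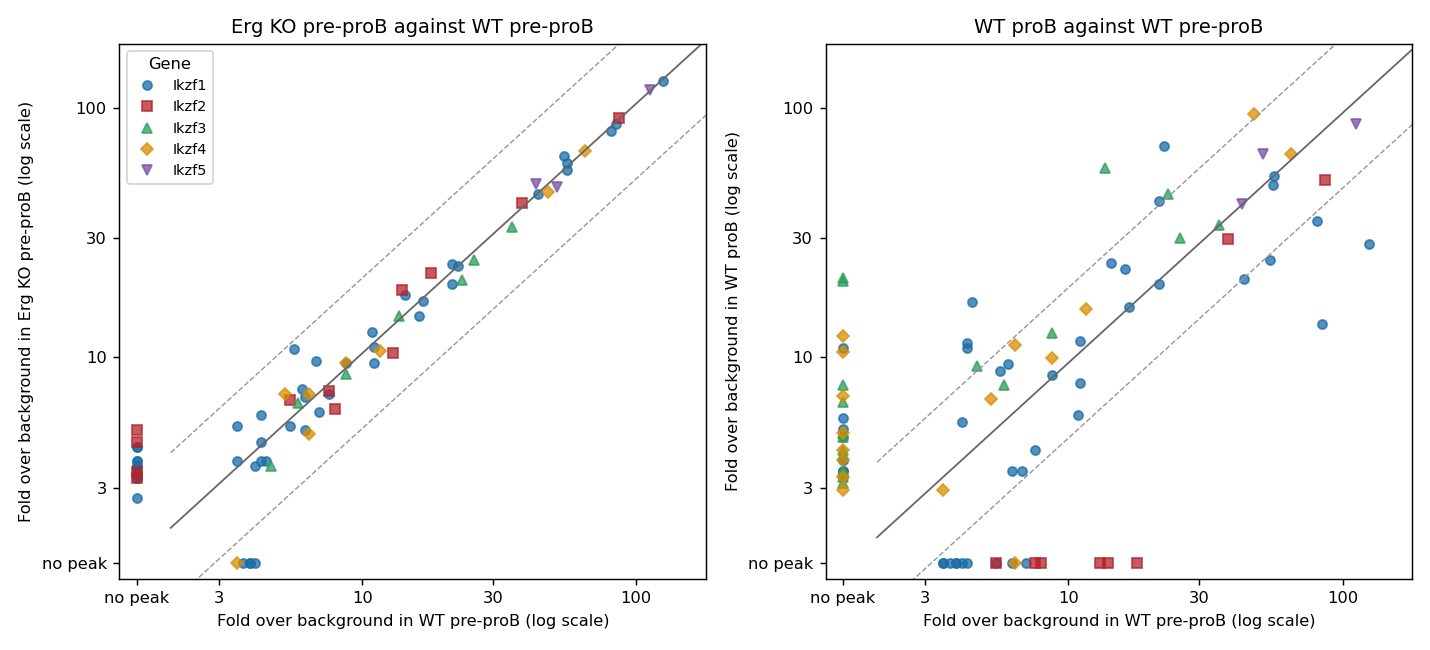
Fold of each region in Erg KO (left) and WT proB (right) against WT pre-proB, on log axes, with regions lacking a peak drawn at "no peak". The solid line is the median ratio of all shared regions and dashed lines are 2-fold on either side of it. On the left all 57 shared regions lie between the dashed lines, and on the right 14 of 45 lie outside.

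Regions in a single list were low in fold. WT pre-proB had 5 of 62 regions (4 at Ikzf1 and 1 at Ikzf4) without an Erg KO peak, against 6.38% of all WT pre-proB regions, with folds of 3.49 to 4.07. Erg KO had 16 of 73 regions (12 at Ikzf1 and 4 at Ikzf2) without a WT peak, against 13.2% of all Erg KO regions, with folds of 2.75 to 5.13. The highest was at +24.3 kb in intron 3 of Ikzf2, with 5.13, a fold of 5.54 in Rescue pre-proB and no peak in any other library. The share of regions in a single list was 26.9% (Wilson interval 18.3 to 37.7%), beside 18.1% over all regions, and 7.55% with lists of equal length. The share over all regions was not computed at equal length. In these 2 libraries T-cell marker promoters with a peak numbered 8 of 10 in Erg KO and 5 of 10 in WT, with summed folds of 165 and 153. The Erg KO list was the longer, with 102605 peaks against 95662. Those called in Erg KO only were low, Cd4 with 5.86, Tcf7 with 5.13 and Bcl11b with 3.66. Of those called in both, Thy1 (22.3 in WT and 8.25 in Erg KO) and Lat were lower in Erg KO. Cd3g, Cd8a and Gata3 were higher. Cd3e and Zap70 had no promoter peak in any library, and the part of such cells in the regions was not tested.

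Rescue and WT pre-proB cells had as many regions in common. The comparison used the same WT library as that of Erg KO. Of 71 regions 58 were in both and none was past 2-fold, beside 0.196% higher and 0.471% lower over all regions. WT had 4 regions without a Rescue peak (5.39% of all), with folds up to 4.46, and Rescue had 9 without a WT peak (15.4% of all), with folds up to 5.54. With stages from the source names the share of regions in a single list went from 18.3% to 48.8%, and 35.7% of shared regions were past 2-fold. The shares over all regions were not computed for that reading, so these values cannot be read as particular to the family.

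In WT cells, regions past 2-fold were found between stages. From WT pre-proB to proB, of 91 regions 45 were shared, 17 of 62 were lost (a WT pre-proB peak and no WT proB peak, 34.4% of all WT pre-proB regions) and 29 of 74 were gained (31.9% of all WT proB regions). Ikzf1 lost 10 and gained 9, Ikzf2 lost 6 and gained none, Ikzf3 lost none and gained 12, and Ikzf4 lost 1 and gained 8. The gains counted for Ikzf3 include the weak regions at the neighbour Grb7 (+97, +98.9 and +99.4 kb). Those counted for Ikzf4 include regions at +23.8, +29.7, +38.7, +43.1 and +44.4 kb, which lie beyond the neighbouring Rps26 promoter (+19.2 kb). Which gene these regions serve was not tested. Among shared regions 9 were at least 2-fold higher in proB (14.8% over all) and 5 lower (15.0% over all). All 5 lower ones were at Ikzf1, at +65.4 kb (log2 difference -2.55, interval -2.95 to -2.21), +77.6 kb (-2.07, -2.34 to -1.82), the promoter (-1.12), +80.4 kb (-1.08) and -18.3 kb (-1.01). Of the higher ones 5 were at Ikzf1, led by +82.3 kb (1.97, 1.33 to 2.76) and +91 kb (1.72, 1.43 to 2.05). A further 3 were at Ikzf3, led by +86.4 kb (2.16, 1.79 to 2.57), and the last was the neighbouring Suox promoter at -28.1 kb of Ikzf4 (1.06). Ikzf1 thus had regions in both directions, while at Ikzf2 they were lost and at Ikzf3 gained or higher.

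Promoters that mark other lineages differed between the same libraries. From WT pre-proB to proB the summed promoter fold went from 479 to 286 for the plasmacytoid dendritic list, from 171 to 157 for the NK and innate lymphoid list, from 52.3 to 36.9 for the myeloid list and from 153 to 192 for the T-cell list. Among single promoters, Siglech had 101 and 18.6, Pacsin1 57.4 and 5.91, Klrb1c 39.5 and 5.54 and Itgam 27.9 and 4.06. Klk1 had 41.7 and no peak, and Cd8a 19.2 and no peak. Other promoters of these lists went the other way. They included Tcf4 (60.1 and 79.9), Spib (48.1 and 83.3), Prf1 (14.9 and 29.5), Csf1r (7.37 and 12.9) and Gata3 (51.6 and 80.1). Ncr1, Gzmb and Elane had no promoter peak in any library. The part of such cells in the stage differences of the family was not tested.

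From WT proB to preB, 58 of 75 regions were shared, 16 were lost (26.5% of all WT proB regions) and 1 was gained (10.6% of all WT preB regions). Higher in preB were 2 regions (4.46% over all), at +95.9 kb of Ikzf1 and at the Ikzf3 promoter, with log2 differences of 1.12 (0.61 to 1.67) and 1.06 (0.63 to 1.52). Lower were 3 (9.34% over all), at -6.8 kb (-1.60) and +77.6 kb (-1.01) of Ikzf1 and +8.8 kb of Ikzf4 (-1.04). The lost regions included 7 of Ikzf4, among them its promoter regions, and none had a fold above 7.02 in proB.

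At the +65.4 and +77.6 kb regions of Ikzf1, Rescue proB lay between WT pre-proB and WT proB. Against WT proB, 62 of 82 regions were shared, 12 were in WT only (20.8% of all WT proB regions) and 8 in Rescue only (19.4% of all Rescue proB regions). None was 2-fold higher in Rescue (5.19% over all) and 3 were lower (6.67% over all), at -6.8 kb of Ikzf1 (-1.30, -2.18 to -0.58), +54.1 kb of Ikzf3 (-1.01, -1.55 to -0.52) and -1.2 kb of Ikzf4 (-1.08, -2.14 to -0.22). At those regions of Ikzf1 the Rescue fold exceeded that of WT proB by less than 2-fold, by 0.90 at +65.4 kb (0.47 to 1.35) and 0.56 at +77.6 kb (0.24 to 0.87) on the log2 scale, and the Ikzf2 regions at +4.0 and +32.1 kb were called in Rescue and not in WT proB. Of the plasmacytoid dendritic marker promoters 10 of 10 had a peak in Rescue proB and 9 of 10 in WT proB, with summed folds of 376 and 286. Siglech had 48.1 in Rescue and 18.6 in WT proB, and Klk1 had 5.12 and no peak. Tcf4 went the other way, with 62.8 and 79.9. T-cell promoters numbered 6 in both, summed to 179 and 192. Of these Cd8a (6.90) and Cd3g (3.56) had a peak in Rescue and not in WT, while Bcl11b (7.38) and Cd4 (3.14) had one in WT and not in Rescue, and the part of such cells in these values was not tested. With stages from the source names 51.6% of regions were in a single list instead of 24.4%, and the share over all regions was not computed.

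Rescue and WT preB shared 55 of 66 regions, with 4 in WT only (7.87% of all WT preB regions) and 7 in Rescue only (17.3% of all Rescue preB regions). No region was 2-fold higher (2.2% over all) and 2 were lower in Rescue (1.26% over all), at +40.3 kb of Ikzf1 (-1.51, -2.62 to -0.62) and +20.5 kb of Ikzf3 (-1.02, -1.72 to -0.38). With stages from the source names 20.8% of regions were in a single list, beside 16.7% by the titles, and the share over all regions was not computed. The change from pre-proB to proB could be set side by side in both genotypes, from separate libraries. Opposite signs were seen in 4 of the 42 regions with a peak in all 4 libraries from pre-proB to proB, and in 18 of 54 from proB to preB, and the share over all regions was not computed. In each of these regions the interval of WT, of Rescue or of both included no change. At +65.4 kb of Ikzf1 the log2 change was -2.55 in WT and -1.58 in Rescue (-1.89 to -1.29). At +91 kb it was 1.72 in WT and 1.53 in Rescue (1.23 to 1.84), and at +86.4 kb of Ikzf3 2.16 and 1.72 (1.37 to 2.09). From proB to preB the change at +65.4 kb was 0.11 in WT (-0.38 to 0.61) and -1.12 in Rescue (-1.60 to -0.67). By the source names, the Rescue change titled pre-proB to proB is one from proB to preB.

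The sequence of the regions was searched for 6 patterns on both strands in the 400 bp around each strongest summit. The patterns were CCGGAA for an ETS core, GAGGAAGT for PU.1, TGGGAA for Ikaros, TCCCNNGGG for EBF1, TGTGGTT for RUNX and CAGGTG for an E-box. The PU.1 pattern does not contain the ETS core as written. The Ikaros pattern was in 46 of 108 regions (42.6%, 33.7 to 52.0%) and in 30.2% of all regions. It was in 24 of the 54 at Ikzf1, 2 of 12 at Ikzf2, 10 of 23 at Ikzf3, 9 of 16 at Ikzf4 and 1 of 3 at Ikzf5. For the central 200 bp the shares were 19.4% (13.1 to 27.9%) and 16.0%. The ETS core was in 7 regions (6.48%, against 7.83% of all). At Ikzf1 it was in 0 of 54, which allows up to 6.64% by the Wilson interval. That count covers the letters CCGGAA only, so it does not show that the Ikzf1 regions lack ETS sites. The PU.1 pattern was in 7 of the same 54 regions, and shorter ETS patterns were not searched. The PU.1 pattern was in 9.26% (9.23% of all), RUNX in 17.6% (15.6% of all) and the E-box in 38.9% (30.2 to 48.3%, 31.6% of all).

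The EBF1 pattern, in 8 regions (7.41%, against 9.05% of all), was mostly in gained ones. From WT pre-proB to proB it was in 6 of the 29 gained regions (20.7%, 9.85 to 38.4%), 1 of the 17 lost (5.88%) and 1 of the 45 shared (2.22%). Over all regions the shares were 17.8% of gained, 3.25% of lost and 9.58% of shared. At Ikzf3 the gained regions with it lay at +3 and +20.5 kb, both in intron 1. The Ikaros pattern was in 16 of the 29 gained regions (55.2%, 37.5 to 71.6%) and 30.4% of all gained ones, and in the central 200 bp in 17.2% and 15.9%.

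Partner genes of the Ikaros proteins had promoter peaks in every library. The 18 NuRD and SIN3 genes all had a promoter peak in all 7 libraries, where 61.4 to 65.5% of coding genes had one. None was past 2-fold in Erg KO or Rescue against WT pre-proB. From WT pre-proB to proB 2 of 18 were higher, beside 6.60% of all genes with both peaks, and none lower, beside 3.79%. These were Chd4, the NuRD ATPase (20.5 and 42.8), and Mta3, a NuRD subunit (13.2 and 38.0). From proB to preB Chd3, the other NuRD ATPase, was higher (5.72 and 18.4, beside 0.389% of all genes), and in Rescue against WT preB the corepressor Ctbp2 was (62.5 and 28.7, beside 1.54%). The median log2 differences of the list lay between -0.05 and 0.15 over the 6 comparisons.

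Of 18 B-lineage genes known to respond to Ikaros proteins, the promoters of all were called in 3 libraries, WT pre-proB and both proB ones, and those of 17 in the other 4. Vpreb1, a surrogate light chain gene with a near-identical copy, had a fold of 8.53 in WT pre-proB and 55.6 in WT proB, and no peak in Erg KO or Rescue pre-proB. Dntt, the template-independent polymerase of V(D)J joining, had 25, 9.16 and 9.47 in WT, Erg KO and Rescue at pre-proB, and 3.32 and 4.45 in WT and Rescue at proB. It had no peak in the preB libraries. Dntt was the only gene of the list past 2-fold lower in Erg KO or in Rescue against WT pre-proB, beside 0.131% and 0.189% of all genes, and none was higher. Both comparisons use the same WT library. From WT pre-proB to proB 5 of 18 were higher (Igll1, Vpreb1, Rag2, Ebf1 and Cd79b) and Dntt was lower, beside 6.60% and 3.79% of all genes. Myc, with 24.0 and 46.2, lay near the call and was not counted. It would be counted if centred as the regions were. Igll1, the other surrogate light chain gene, had 25 and 141, and Rag2, of the recombinase, 9.50 and 31.4. The promoter of Ebf1, a factor of B-cell specification, had 21.5 and 58.9 in these libraries and 24.4 in Erg KO. From proB to preB Vpreb1 and Kit, the receptor for stem cell factor, were lower, beside 4.31% of all genes, Kit with 46.7 and 14.2. Vpreb1 was lower in Rescue than in WT proB (25.2 and 55.6), beside 1.58%. The median log2 differences of the list lay between -0.09 and 0.39.

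Promoters elsewhere were compared with those of the members over the 7 libraries, as log2 folds centred on each library's median, for 12869 coding genes with a promoter peak in all 7. Closest to Ikzf1 were Ak8 (Pearson r = 0.997), Tfb1m (0.996) and Zfp36 (0.995), and to Ikzf2 Galnt1 (0.987), H2-Eb1 (0.982) and Slc41a2 (0.979). Closest to Ikzf3 were Pms1, Ormdl1 and Gm28778 (0.998 each, from a single shared peak), and to Ikzf5 Acadsb (1, the same peak), Eif3f (0.991) and Npc1 (0.991). The points share libraries and depth and fall into 2 stage groups, and 260 genes reached 0.95 with Ikzf1, 30 with Ikzf2, 1258 with Ikzf3 and 48 with Ikzf5. Ikzf4 lacked a peak in WT preB and was left out.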

How the data were processed

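ATAC-seq libraries were made from sorted mouse cells. Per the labels and the study's methods, reads passed through CASAVA 1.8.2, Bowtie2 (mm10), Picard and MACS2, and the authors deposited 1 peak list per library, with no pooling. Other versions, options and duplicate handling were not given in the sources used here, and the methods name sonication where the labels name Tn5. These choices can affect how many weak peaks are called. The deposited score is 10 times the −log10 q, the deposited fold is a ratio of summit to background pileup, and the −log10 p and −log10 q the authors deposited are those of the summit. Folds were whole steps within 0.02, which gave each background pileup and the summit pileups. Read totals were not used.

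Python 3.11.15 with pandas 2.3.3, numpy 2.4.6 and scipy 1.17.1 was used. Genes and starts came from the GENCODE M21 basic annotation and sequence from GRCm38. Overlaps of at least 1 bp were merged into regions over the 7 lists. Each region took the fold of its strongest peak per library. For regions, a difference of 2-fold, after subtracting the median log2 difference of all shared regions, was the call. That median lay between -0.07 and 0.16. Promoters of list genes were also called at 2-fold, but centred on a different value. Shares carry Wilson and folds Poisson intervals at the 95% level, for counting error only. The code was tested on simulated peaks. Named regions were promoters, the 3 highest others per gene, those past 2-fold and single-list regions with a −log10 q of at least 10. The +30.8, +95.9 (in Erg KO) and +102.8 kb regions of Ikzf1, the +3 kb region of Ikzf3, the Zpbp2 promoter, the named list genes past 2-fold, the named marker genes, and the sequences shown were picked after their values were seen. Myc and the Grb7 regions were picked likewise. The members and all lists were chosen with earlier results of these data known. Lists of 10 markers were counted for 7 lineages. Beside the B-lineage and T-cell lists, of NK and innate lymphoid promoters 3 to 7 had a peak, of plasmacytoid dendritic 9 or 10, of myeloid 4 to 6, of stem and progenitor 8 or 9, and of erythroid 4 of 9 annotated.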

Additional observations from a re-analysis of the deposited data

How the results depend on the processing

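No value was replicated, so alternatives were judged against counting intervals or, for counts, a 1.5-fold band. Of 188 values that answer a comparison, 153 stayed within them. Some of these could not move, since the source names relabel only the Rescue libraries and leave values of WT and Erg KO as they were. Cutting lists to the shortest length left the WT preB list as it was. A promoter window of 2500 bp can only add genes, and nearly all genes counted had a peak already, so its 21 values could not leave the band. The count of 153 is therefore no measure of how stable the results are. Cutting every list to its 76465 strongest peaks moved the share of regions in a single list to 7.55% for Erg KO and 7.69% for Rescue against WT pre-proB. With 38232 peaks these were 7.14% and 10.3%, 0% of regions were past 2-fold in Rescue against WT preB, 3 members had a promoter peak in each pre-proB library (Ikzf3 and Ikzf4 lacked one), and the family held 28 peaks in each pre-proB library, 40 in WT proB, 40 in WT preB, 38 in Rescue proB and 36 in Rescue preB. Without the flank it held 45 in WT pre-proB, 55 in Erg KO, 45 in Rescue pre-proB, 43 in WT proB, 47 in Rescue proB, 36 in WT preB and 38 in Rescue preB, and with 100 kb 115, 124 and 97 in WT pre-proB, proB and preB and 120 in Rescue pre-proB. A percentile difference past 25 points in place of a 2-fold one gave 3.45% for WT proB to preB. Stages from the source names gave 48.8% in a single list and 35.7% past 2-fold at pre-proB, and 51.6% and 28.3% at proB. Shares over all regions were not computed for the shorter lists, the percentile call or the source names. A window of 200 bp gave 25% for the E-box, 19.4% for Ikaros and 9.26% for RUNX, where shorter windows hold fewer matches by construction. Over all regions that window gave 19.98%, 15.98% and 10.78%. The RUNX share was thus below that of all regions at 200 bp and above it at 400 bp (17.6% and 15.6%). Its Wilson interval at 200 bp, 5.11 to 16.2%, included the share of all regions. Without other genes' promoters the ETS core, as the letters CCGGAA, was in 2.02%. Depth limits what an absent region shows, since summits under 10 to 12 fragments were not called. No paired analysis was possible because each group is 1 library.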
